A study of Mus musculus with 18 samples.

Results

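The type I interferon and antiviral programme was followed in whole lung of 3 inbred mouse strains through 35 named genes. These are genes that cells switch on when interferon binds its receptor, together with the sensors and transcription factors that run the response. A gene was measured where the array annotation gave a probe set (a group of short probes for one transcript) to that gene alone, which held for 33 of the 35 genes, out of 12405 genes tested on the array. The probe set for Isg15 also named another gene and Ifi44 had none of its own, so both are not analysed here. In all, 52 probe sets named one of these genes alone, 49 of them passed the filter on dim signals, and each of the 33 genes was represented by its brightest one.

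RNA came from the right lung of untreated mice and of mice given 18 Gy to the whole thorax at 8 weeks of age, with 3 arrays in each of 6 groups. The inbred strains were C3H/HeJ, A/J and the one that the labels spell C57BL6/J, called C57BL/6J here. No transgene or engineered allele is named for any group. Controls of each strain had an age of 15 to 26 weeks. Irradiated animals were killed when moribund: C3H/HeJ at an age of 20 to 22 weeks (12 to 14 weeks after exposure), C57BL/6J at 28 to 30 weeks (20 to 22 after exposure) and A/J at 30 to 32 weeks (22 to 24 after exposure). Lead shielding of 3 cm reduced the beam to 3% over the rest of the body. Irradiation, moribund state and time after exposure therefore cannot be told apart within a strain, and in A/J and C57BL/6J age cannot be told apart from them either. The labels describe the irradiated samples as RNA of 3 moribund mice per strain, but do not say whether the 3 control samples came from separate animals. Where control samples shared an animal, the p-values would measure a spread that is partly technical.

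Type I interferons are secreted proteins that signal through the receptor chains Ifnar1 and Ifnar2 and the kinases Jak1 and Tyk2. A complex that holds the transcription factors Stat2 and Irf9 then binds the interferon-stimulated response element in target promoters. The targets block viral RNA, protein synthesis, entry or budding, and several of them, such as Irf7 and the RNA sensors, feed back on interferon production. In lung, alveolar macrophages, plasmacytoid dendritic cells and epithelium are known sources of interferon, and nearly every cell type can respond.

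Promoter sequences are shown for 3 genes that were higher in irradiated lung of every strain and carry the response element close to their start. The sequences come from RefSeq on build GRCm38.p6, in which 25 of the 35 genes had an entry. Each stretch is the 160 bases just before the annotated gene start, read 5′ to 3′ on the gene's own strand: Ifit1 at chr19:34640729-34640888 on the plus strand, Ifit3 at chr19:34583369-34583528 on the plus strand and Oas1a at chr5:120907526-120907685 on the minus strand. Capitals mark the core of the response element, which is GAAA, any 2 bases and GAAA again, on either strand (TTTC, any 2 bases and TTTC on the other).
Ifit1: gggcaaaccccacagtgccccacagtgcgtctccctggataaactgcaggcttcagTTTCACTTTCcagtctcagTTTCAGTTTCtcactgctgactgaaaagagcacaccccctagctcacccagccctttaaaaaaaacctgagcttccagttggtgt
Ifit3: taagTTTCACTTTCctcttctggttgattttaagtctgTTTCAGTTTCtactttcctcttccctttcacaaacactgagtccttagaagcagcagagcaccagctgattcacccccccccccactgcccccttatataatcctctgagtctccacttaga
Oas1a: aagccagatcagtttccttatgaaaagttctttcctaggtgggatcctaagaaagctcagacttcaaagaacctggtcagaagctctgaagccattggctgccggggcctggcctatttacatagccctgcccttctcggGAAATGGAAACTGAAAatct
In Ifit1 and Ifit3 the 2 matches are separate, and in Oas1a the 2 matches overlap, so that they read as 1 run of capitals.

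Over the 250 bases before the start, 9 of the 25 genes with an entry (36%) held the core on either strand, against 3.46% of 27025 genes in the table. The 9 were Bst2, Ifit1, Ifit3, Isg15, Oas1a, Oas3, Rsad2, Stat2 and Trim30a, and matches also overlapped in Bst2 and Isg15. With the 50 bases after the start included, 13 of 25 (52%) held it, against 3.99%. Motif and rise did not always go together. Irf8, which also rose in every strain by its brightest probe set, had an entry but held no match. Of the 9 genes with the core, Oas3, Rsad2 and Stat2 were called in no strain by their brightest probe set, and Trim30a was called lower in A/J. A match is a string of letters and was not tested as a binding site.

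Several arrays stood apart from the others before any comparison. The trimmed mean of the deposited signals ran from 46.5 to 176 between arrays, and the values below are therefore quantile-normalized log2(signal + 7). The ratio of 5′ to 3′ control probe sets for actin, which falls when RNA is degraded or copied incompletely, was 0.413 to 0.551 in the irradiated A/J arrays and 0.677 to 0.766 in the other 15. For Gapdh the ratio was 0.294 in A/J irradiated 1, 0.876 in irradiated 2 and 1.03 in irradiated 3, and 1.06 or more in the other 15. C57BL/6J control 1 and 3 and A/J irradiated 3 had summed squamous epithelium markers of 4257 to 6646, against 139 to 328 in the others, and the highest skeletal muscle sums (2237 to 2580 against at most 588.5). On 51 probe sets that separate untreated A/J from untreated C3H/HeJ lung, with C3H/HeJ placed at 0 and A/J at 1, the array labelled C3H/HeJ irradiated 3 lay at 0.553, while the other 2 irradiated C3H/HeJ arrays lay at 0.0717 and 0.0419. The labelled tissue was borne out by alveolar markers: the type 1 list (6 of 6 genes measured) summed to 14670 to 18230 and the type 2 list (7 of 8) to 22480 to 30930, with none at 0.

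Irradiated and control lung of each strain were compared gene by gene. Of the 33 genes, 12 rose and 0 fell in C57BL/6J, 11 rose and 1 fell in C3H/HeJ, and 6 rose and 2 fell in A/J (limma, Benjamini-Hochberg adjusted p below 0.05 over 12405 genes). Among all genes tested, 3.01% were called higher in C57BL/6J, 12.9% in C3H/HeJ and 15.1% in A/J, so the members' shares of 36.4%, 33.3% and 18.2% stood furthest from the background in C57BL/6J and close to it in A/J. The A/J counts moved with single control arrays, as described further on. For lower calls the background was 2.36%, 10.6% and 8.91%, and in both directions together it was 5.37%, 23.5% and 24.0%. Over the 33 genes the median log2 fold change was 0.45 in C57BL/6J, 0.46 in C3H/HeJ and 0.13 in A/J, beside -0.01, 0.01 and 0.09 over all genes. In bulk lung, more cells that express a gene and more of its RNA per cell cannot be told apart.

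**Figure D1:**
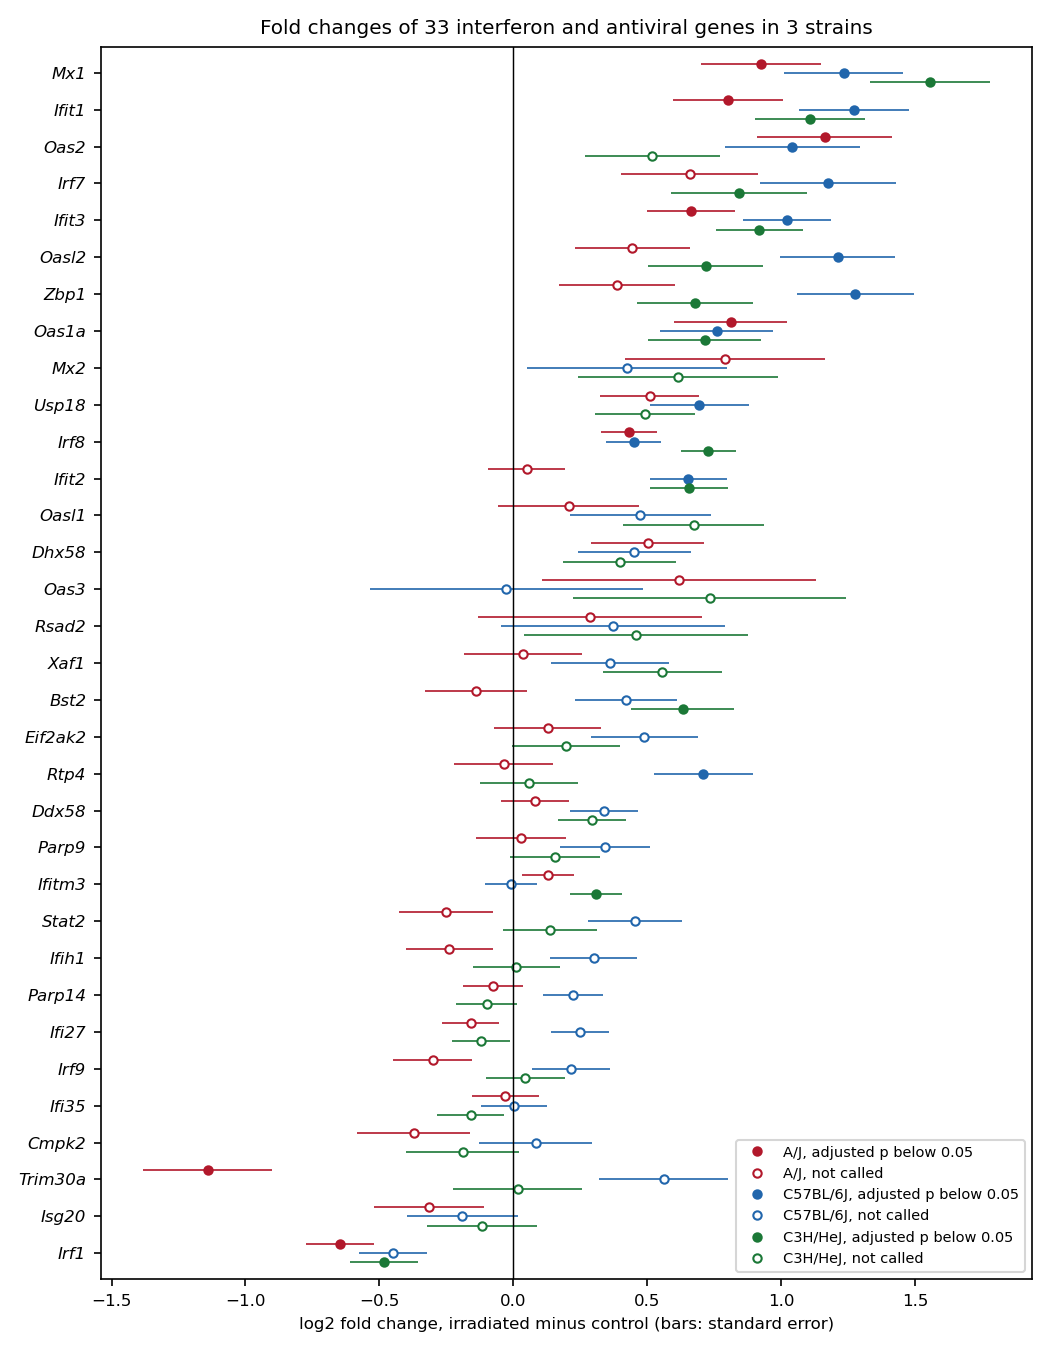
Log2 fold change (irradiated minus control, horizontal axis) of the 33 measured genes in each strain, with standard errors as bars and filled symbols for adjusted p below 0.05. Most symbols of C57BL/6J and C3H/HeJ lie to the right of 0 (29 and 27 of 33), against 21 of 33 in A/J, where Trim30a lies farthest to the left at -1.14.

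**Figure D2:**
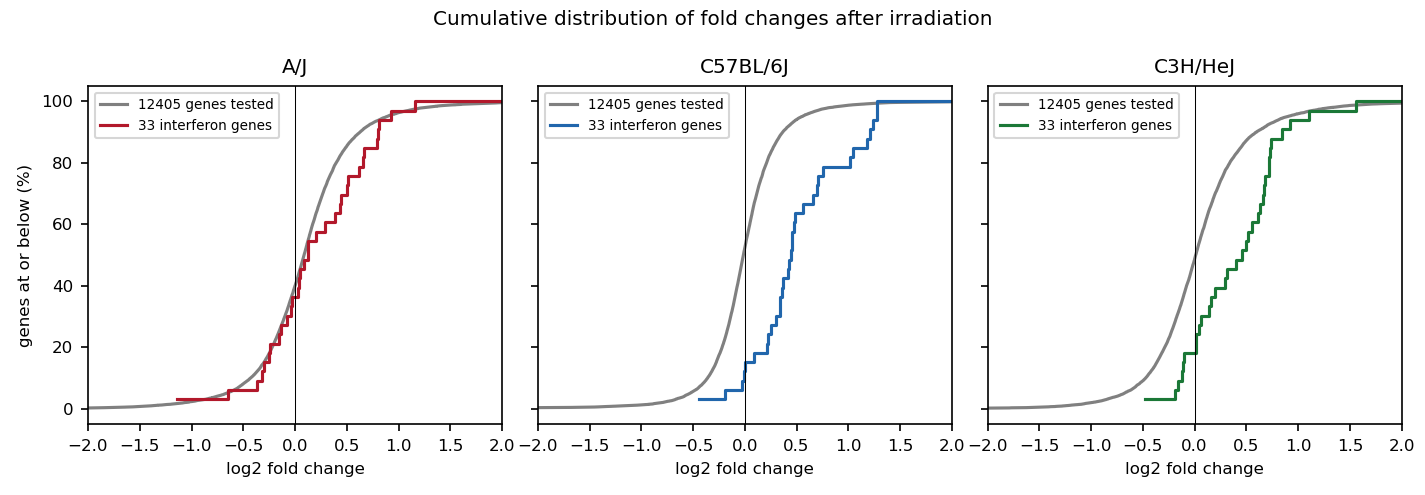
Share of genes at or below a given log2 fold change (irradiated minus control), for the 33 interferon genes (coloured steps) and all 12405 genes tested (grey line), in 1 panel per strain. The coloured steps run to the right of the grey line in C57BL/6J and C3H/HeJ, with medians of 0.45 and 0.46, and cross it in A/J, with a median of 0.13.

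Ifit1, Ifit3, Oas1a, Mx1 and Irf8 rose in all 3 strains, a pattern that 203 of all genes tested (1.64%) shared. Ifit2, Oasl2, Zbp1 and Irf7 rose in C57BL/6J and C3H/HeJ, a pattern of 0.451% of all genes. Oas2 rose in A/J and C57BL/6J (0.355% of all genes), Usp18 and Rtp4 in C57BL/6J alone (0.508%), and Bst2 and Ifitm3 in C3H/HeJ alone (5.44%). Irf1 fell in A/J and C3H/HeJ (3.35%), and Trim30a fell in A/J alone (4.38%). For the patterns of Bst2 and Ifitm3, of Irf1 and of Trim30a, the members' shares were close to or below those of all genes. The other 17 genes passed the test in none of the strains, as did 62.7% of all genes.

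The number of C57BL/6J calls depended on single arrays of either group. Leaving out 1 array of the strain at a time, 5 genes were called without control 1, 12 without control 2, 6 without control 3, 5 without irradiated 1, 7 without irradiated 2 and 10 without irradiated 3. The share of all genes called moved too, at 1.82%, 5.50%, 2.42%, 1.72%, 3.38% and 5.87% in that order. The members' median stayed between 0.38 and 0.53 in these fits. With C57BL/6J control 1 and 3 and A/J irradiated 3 left out, 1 C57BL/6J control remains, whose spread is assumed to be that of the other groups. In that fit 0 of 32 genes and 0.245% of all genes were called in C57BL/6J, so the count says little about the members, whose median was 0.45 as in the full fit. In C3H/HeJ, 9 genes rose and 0 fell without irradiated 3, the array of doubtful strain position: Oas1a, Oasl2, Ifitm3 and Irf1 lost their calls and Ddx58 gained one, at 0.41 ± 0.14 (SE). The C3H/HeJ count was 5 without control 1 and 7 without irradiated 2. Of all genes, 17.6% were called without irradiated 3, 17.3% without control 1 and 17.7% without irradiated 2, against 23.5% in the full fit.

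The RNA-binding effectors act on viral RNA or on translation. Of 9 measured, 5 rose in C3H/HeJ, 6 in C57BL/6J and 4 in A/J, and none fell. Among all genes 12.9%, 3.01% and 15.1% were called higher in that order. The median log2 fold change of the 9 effectors was 0.72, 0.76 and 0.62 in the same order. Without the 3 arrays high in squamous genes, 5 rose in C3H/HeJ and 4 in A/J, while in C57BL/6J, with 1 control left and 0.245% of all genes called, the count was 0. Without C3H/HeJ irradiated 3 the C3H/HeJ count was 3.

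Ifit1 binds viral RNA that lacks the methylated cap of host messages. In A/J its normalized log2 signal was 6.97, 6.54 and 7.19 in the controls and 7.66, 7.54 and 7.90 after irradiation, a rise of 0.80 ± 0.20 (SE, n = 3 per group, adjusted p = 0.00986). In C57BL/6J the controls had 6.83, 7.39 and 6.84 and the irradiated lungs 8.24, 8.44 and 8.20, a rise of 1.27 ± 0.20 (adjusted p = 0.00268). C3H/HeJ went from 6.32, 6.96 and 6.58 to 7.65, 8.02 and 7.52, a rise of 1.11 ± 0.20 (adjusted p = 0.00119). Every irradiated array of a strain lay above every control of that strain. In linear terms the C57BL/6J rise was 2.42-fold on the signal + 7 scale.

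Ifit3, which stabilizes Ifit1 complexes, showed the same order of arrays. It read 8.04, 8.04 and 8.71 in A/J controls and 8.75, 8.87 and 9.16 in irradiated A/J, a rise of 0.66 ± 0.16 (adjusted p = 0.00816) with A/J control 3 just below the lowest irradiated array. C57BL/6J went from 8.54, 8.88 and 8.63 to 9.72, 9.78 and 9.61, a rise of 1.02 ± 0.16 (adjusted p = 0.00268). C3H/HeJ went from 8.29, 8.11 and 8.28 to 9.20, 9.21 and 9.02, a rise of 0.92 ± 0.16 (adjusted p = 0.000913). The groups did not overlap in any strain.

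Ifit2, a related translation inhibitor, separated the strains more in its calls. In C57BL/6J it was 7.20, 7.34 and 7.34 in controls and 8.11, 7.76 and 7.97 after irradiation, a rise of 0.65 ± 0.14 (adjusted p = 0.0178). The C3H/HeJ values went from 7.21, 7.46 and 7.24 to 7.95, 8.13 and 7.80, a rise of 0.66 ± 0.14 (adjusted p = 0.00396). In A/J the values were 7.46, 7.45 and 7.72 before and 7.43, 7.43 and 7.91 after, a difference of 0.05 ± 0.14 with overlapping groups. The difference between the C57BL/6J and A/J effects did not pass the test.

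The Oas genes encode enzymes that sense double-stranded RNA and make the messenger that activates RNase L, and Oasl2 is a relative of them. Oas1a rose in A/J from 6.79, 6.56 and 7.27 to 7.69, 7.42 and 7.94, by 0.81 ± 0.21 (adjusted p = 0.0108). In C57BL/6J it rose from 6.94, 7.08 and 6.39 to 7.69, 7.80 and 7.20, by 0.76 ± 0.21 (adjusted p = 0.0478), a call that held in 12 of 31 alternative settings. C3H/HeJ values of 7.32, 7.38 and 7.18 became 7.93, 7.95 and 8.15, a rise of 0.72 ± 0.21 (adjusted p = 0.0225), or of 0.64 without irradiated 3, where it was no longer called. The irradiated arrays lay above the controls in each strain. Oas1a has close paralogs, and probe sets of such families may read more than one of them.

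Oas2, another gene of this family, was spread widely in the A/J controls. Its values in A/J were 4.28, 5.48 and 5.35 in controls and 6.25, 5.98 and 6.36 after irradiation, a rise of 1.16 ± 0.25 (adjusted p = 0.0036). In C57BL/6J they were 4.57, 5.35 and 5.11, then 6.03, 6.14 and 5.98, a rise of 1.04 ± 0.25 (adjusted p = 0.0259). In C3H/HeJ they were 5.46, 5.37 and 5.61, then 5.79, 6.17 and 6.04, a difference of 0.52 ± 0.25 that missed the threshold (adjusted p = 0.151) although the groups did not overlap.

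Oasl2 rose from 7.30, 7.44 and 7.25 to 8.32, 8.75 and 8.56 in C57BL/6J, by 1.21 ± 0.21 (adjusted p = 0.00492). In C3H/HeJ it went from 7.32, 7.36 and 7.31 to 7.92, 8.21 and 8.02, by 0.72 ± 0.21 (adjusted p = 0.0241). A/J controls 1 and 2 had 7.16 and 7.17 but A/J control 3 had 8.17, close to the irradiated values of 7.74, 7.85 and 8.23, and the difference of 0.44 ± 0.21 was not called. Without A/J control 3 it was 0.78 and was called. Oas3, Oasl1 and Eif2ak2, the double-stranded RNA-activated kinase that halts translation, passed in none of the strains by their brightest probe set. Those estimates were between -0.03 and 0.73. A second Eif2ak2 probe set was called higher in A/J (0.69 ± 0.20, adjusted p = 0.0166) and C3H/HeJ (0.76 ± 0.20, adjusted p = 0.0134) in the limma fit over all kept probe sets, and the remaining one was not called in any strain.

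**Figure D3:**
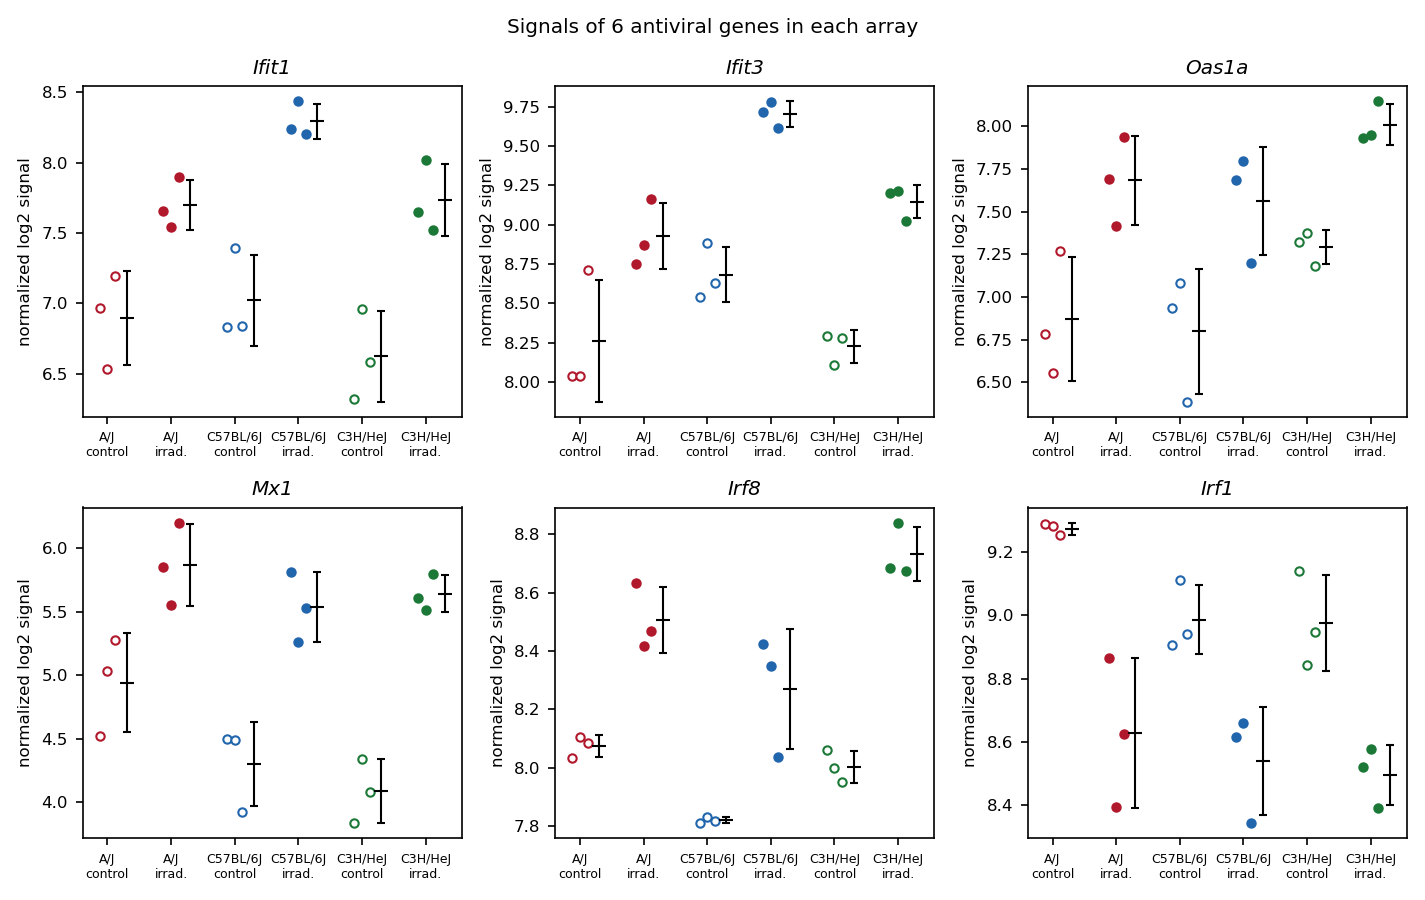
Normalized log2 signal (vertical axis) of 6 antiviral genes in each array, with open points for controls, filled points for irradiated lungs, and the mean ± SD of the 3 arrays as a black bar beside them. For Ifit1 the 3 irradiated arrays of every strain lie above the 3 controls, from 7.52 to 8.44 against 6.32 to 7.39.

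Another group acts at membranes or on nucleotides: of 6 measured, 3 rose in C3H/HeJ, 1 in C57BL/6J and 1 in A/J, and none fell. Among all genes 12.9%, 3.01% and 15.1% were called higher in that order, so the A/J count was near the background. Mx1, a dynamin-like GTPase that traps viral nucleocapsids and is defective in many laboratory strains, rose in all 3 strains. In C3H/HeJ it went from 3.84, 4.34 and 4.08 to 5.61, 5.51 and 5.80, a rise of 1.56 ± 0.22 (adjusted p = 0.000161), the highest estimate of the 33 genes in that strain in the full fit. C57BL/6J went from 4.50, 4.49 and 3.92 to 5.82, 5.26 and 5.53, by 1.23 ± 0.22 (adjusted p = 0.00556). A/J went from 4.52, 5.03 and 5.27 to 5.85, 5.55 and 6.20, by 0.93 ± 0.22 (adjusted p = 0.00715). No control reached the irradiated range of its strain. Mx1 was dim, with deposited signals of 5.2 to 15.4 in C3H/HeJ and C57BL/6J controls. The normalized log2 values of these controls, 3.84 to 4.50, all lay below the filter level of 4.98 on that scale. Mx1 passed the filter through 11 arrays: the irradiated ones and A/J controls 2 and 3. Over the alternative settings its C3H/HeJ estimate went down to 0.84, while that of Ifit1 stayed at 0.94 or more.

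Ifitm3 blocks the fusion of virus with endosomal membranes. In C3H/HeJ it was 11.54, 11.71 and 11.67 in controls and 11.94, 11.92 and 11.99 after irradiation, a small rise of 0.31 ± 0.10 (adjusted p = 0.0306) that was not called without irradiated 3. In A/J it was 11.73, 11.69 and 11.97, then 11.98, 11.88 and 11.92, and in C57BL/6J it was 11.66, 11.68 and 11.67, then 11.52, 11.77 and 11.70. Both of those pairs of groups overlapped. Bst2 (tetherin), which holds budding virus at the cell surface, rose by 0.63 ± 0.19 in C3H/HeJ (adjusted p = 0.0259). Its difference was 0.42 ± 0.19 in C57BL/6J and -0.14 ± 0.19 in A/J, neither called. Mx2, Rsad2 (viperin) and Cmpk2 passed in none of the strains by their brightest probe set, with estimates from -0.37 to 0.79. Mx2 lay above the overall median in 3 arrays alone. Other probe sets reached 1.07 ± 0.36 for Rsad2 in C3H/HeJ and -0.73 ± 0.37 for Cmpk2 in A/J. Neither was called in the limma fit over all kept probe sets (adjusted p = 0.0518 and 0.168). Rsad2 was spread widely in irradiated A/J, where array 2 read 9.36 and the other arrays 7.18 and 7.41.

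Among the 4 nucleic acid sensors, only Zbp1, which binds Z-form nucleic acid and can start necroptosis, was called, in C57BL/6J and C3H/HeJ. Among all genes 3.01% and 12.9% were called higher there. By its brightest probe set Zbp1 rose in C57BL/6J from 5.10, 5.44 and 4.65 to 6.24, 6.52 and 6.27, by 1.28 ± 0.22 (adjusted p = 0.00406). This was the highest estimate of the 33 genes in that strain in the full fit. It also rose in C3H/HeJ, from 5.61, 5.39 and 5.73 to 6.14, 6.54 and 6.09, by 0.68 ± 0.22 (adjusted p = 0.0344). In A/J it was 5.53, 5.23 and 5.62, then 5.60, 5.60 and 6.35, a difference of 0.39 ± 0.22 with overlapping groups. A dimmer Zbp1 probe set gave 0.68 ± 0.41 in C57BL/6J and 0.74 ± 0.41 in C3H/HeJ. Neither was called in the limma fit over all kept probe sets (adjusted p = 0.44 and 0.227). With averaged probe sets the C3H/HeJ call of Zbp1 was lost. Over the alternative settings its C57BL/6J estimate went down to 0.85, while that of Oasl2 stayed at 1.09 or more. The cytosolic RNA helicases Ifih1 (MDA5), Ddx58 (RIG-I) and Dhx58 (LGP2) had estimates between -0.24 and 0.50 by their brightest probe set and were not called. For Dhx58 the estimates were 0.40 (C3H/HeJ), 0.45 (C57BL/6J) and 0.50 (A/J), each with an SE of 0.21.

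The transcription factors did not move as a block: of 5 measured, 1 rose and 1 fell in A/J, 2 rose in C57BL/6J, and 2 rose and 1 fell in C3H/HeJ. Among all genes, 15.1% were higher and 8.91% lower in A/J, 3.01% and 2.36% in C57BL/6J, and 12.9% and 10.6% in C3H/HeJ. Irf7, which amplifies interferon-alpha production, rose in C57BL/6J from 6.20, 6.72 and 6.07 to 7.71, 7.58 and 7.23, by 1.18 ± 0.26 (adjusted p = 0.0162). It also rose in C3H/HeJ, from 6.24, 6.63 and 6.57 to 7.44, 7.50 and 7.02, by 0.84 ± 0.26 (adjusted p = 0.0257). In A/J it was 6.27, 5.98 and 7.10 in controls and 6.86, 7.07 and 7.40 after irradiation, a difference of 0.66 ± 0.26 (adjusted p = 0.0725). Here A/J control 3 lay among the irradiated arrays, and without it the difference was 0.99 and was called.

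Irf8, a factor of monocytes, macrophages and dendritic cells, rose in every strain by its brightest probe set. Its A/J values were 8.03, 8.10 and 8.08, then 8.63, 8.42 and 8.47, a rise of 0.43 ± 0.10 (adjusted p = 0.00701). Those of C57BL/6J were 7.81, 7.83 and 7.82, then 8.42, 8.35 and 8.04, a rise of 0.45 ± 0.10 (adjusted p = 0.0216). Those of C3H/HeJ were 8.06, 8.00 and 7.95, then 8.68, 8.84 and 8.67, a rise of 0.73 ± 0.10 (adjusted p = 0.000148). The A/J rise depends on the probe set, as described further on. Summed classical dendritic markers without Irf8 (6 genes measured) were 228 to 253 in C3H/HeJ controls and 317 to 404 after irradiation, and overlapped in A/J and C57BL/6J. With Irf8 included the sum also separated in C57BL/6J (428 to 500, then 540 to 645). The part of dendritic cells in the Irf8 values was not tested.

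Irf1, which is induced by interferon-gamma as well as type I interferon, went the other way. A/J values were 9.29, 9.28 and 9.25 in controls and 8.87, 8.39 and 8.63 after irradiation, a difference of -0.65 ± 0.13 (adjusted p = 0.0018). In C3H/HeJ they were 9.14, 8.84 and 8.95, then 8.52, 8.58 and 8.39, a difference of -0.48 ± 0.13 (adjusted p = 0.0124). In C57BL/6J they were 8.91, 9.11 and 8.94, then 8.62, 8.66 and 8.34, a difference of -0.45 ± 0.13 that missed the threshold (adjusted p = 0.0528) with no overlap of the groups. Without any scaling the C3H/HeJ difference was 0.24 and the A/J difference -0.05, where the median of all genes had moved to 0.61 and 0.56. Centred on array medians they were -0.14 and -0.28, not called. Stat2 and Irf9, which act together in the interferon-activated complex, were not called in any strain by their brightest probe set, with estimates from -0.30 to 0.45. The second Stat2 probe set was called higher in A/J, by 0.47 ± 0.15 (adjusted p = 0.0282 in the limma fit over all kept probe sets).

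In the Isg15 system, which attaches the ubiquitin-like protein Isg15 to other proteins, and among its regulators, 4 genes were measured. Usp18, which removes Isg15 and damps the receptor, rose by 0.69 ± 0.19 in C57BL/6J (adjusted p = 0.0406), a call that held in 16 of 31 alternative settings. Its difference was 0.51 ± 0.19 in A/J and 0.49 ± 0.19 in C3H/HeJ, neither called. Parp9 and Parp14 were not called, with estimates from -0.10 to 0.34 by their brightest probe set. Of the 5 other induced genes, Rtp4 rose by 0.71 ± 0.18 in C57BL/6J (adjusted p = 0.0364), against -0.04 ± 0.18 in A/J and 0.06 ± 0.18 in C3H/HeJ. Isg20, Xaf1, Ifi35 and Ifi27 were not called, with estimates from -0.31 to 0.56.

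Trim30a, a Trim family protein that is known to restrain inflammatory signalling, was the 1 gene called for a difference in response between strains, by its brightest probe set. In A/J it was 8.42, 8.38 and 8.75 in controls and 6.57, 7.64 and 7.92 after irradiation, a difference of -1.14 ± 0.24 (adjusted p = 0.00293). In C57BL/6J it was 8.44, 8.52 and 8.46, then 9.06, 9.19 and 8.85, a difference of 0.56 ± 0.24 (adjusted p = 0.202). C3H/HeJ had 8.48, 8.40 and 8.27, then 8.40, 8.58 and 8.23, a difference of 0.02 ± 0.24. The A/J groups and the C57BL/6J groups each failed to overlap, in opposite directions. Without A/J irradiated 1, the lowest array, the A/J difference was -0.74 and was called. Without scaling it was -0.61 and was not called.

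The effects of irradiation were set against each other between strains. The C57BL/6J effect exceeded the A/J effect for Trim30a by 1.70 ± 0.34 (adjusted p = 0.00979), and this was the 1 call among the 33 genes, where 5.38% of all genes were called. For C57BL/6J against C3H/HeJ and for C3H/HeJ against A/J, 0 of 33 were called in limma, with lowest adjusted p of 0.223 and 0.0989, beside 1.61% and 1.06% of all genes. At an unadjusted p under 0.05 the 3 contrasts held 9, 3 and 3 of the 33 genes. The share of all genes at that level was not computed, so these counts have no background to be read against. All 9 in the contrast of C57BL/6J with A/J had the higher effect in C57BL/6J.

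Estimates of that contrast were above 0 for 27 of 33 genes, against 38.5% of all genes, and their median was 0.31 against -0.10. Without A/J control 3 the median of the members was 0.19. Without A/J irradiated 3 the contrast had 4 calls, with Ifit2 (0.76), Zbp1 (1.14) and Stat2 (0.95) beside Trim30a. A call in one strain and none in another therefore does not show a difference between strains for the other genes. Standard errors of these differences ran from 0.14 to 0.72.

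Untreated lungs of the strains were compared as well; the 3 contrasts share control arrays. Mx1 was lower in untreated C3H/HeJ (3.84, 4.34 and 4.08) than in untreated A/J (4.52, 5.03 and 5.27), by -0.86 ± 0.22 on the log2 scale (adjusted p = 0.0393). Bst2 was lower in the same contrast, by -0.85 ± 0.19 (adjusted p = 0.017). Parp14 was lower in untreated C57BL/6J (7.31, 7.46 and 7.49) than in A/J (7.81, 7.75 and 7.86), by -0.39 ± 0.11 (adjusted p = 0.0385). Ifi27 was lower in untreated C57BL/6J (9.14, 9.11 and 9.07) than in C3H/HeJ (9.55, 9.43 and 9.60), by -0.42 ± 0.11 (adjusted p = 0.02).

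No other gene was called in these contrasts, and the calls of 2, 1 and 1 among 33 genes stood beside 4.49%, 10.4% and 10.9% of all genes. They lean on single arrays. Without A/J control 3, neither Mx1 nor Bst2 was called between C3H/HeJ and A/J, where 0 genes were called. The members' median difference between untreated C57BL/6J and A/J was -0.16 with that array and 0.05 without it.

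A/J control 3 was the array in which the antiviral genes stood out within their group. It held the highest of the 3 control values for 30 of 33 genes, where 38.6% of all genes tested were highest in it. The median of the members was 0.44 above the mean of the other 2 controls on the log2 scale, against 0.03 over all genes. Array 2 led its group for 25 of 33 genes in irradiated C57BL/6J and for 23 of 33 in irradiated C3H/HeJ, and A/J irradiated 3 led for 20 of 33. Of all genes tested, 32.5%, 32.4% and 26.9% were highest in these arrays. Without A/J control 3, 10 genes rose and 2 fell in A/J in place of 6 and 2. In either direction 19.7% of all genes were called in place of 24.0%. The members' median was then 0.22, beside 0.10 over all genes. The added genes were Oasl2, Dhx58, Irf7 and Usp18, with differences of 0.78, 0.68, 0.99 and 0.70. Since this array was singled out by the members' own high values, leaving it out had to raise their A/J differences. Without A/J control 1, 6 genes rose and 2 fell, with a median of 0.05 beside 0.09 over all genes. Without A/J control 2, 4 rose and 2 fell, with a median of 0.07 beside 0.07. Of all genes, 17.8% and 16.8% were called in these 2 fits, in either direction.

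**Figure D4:**
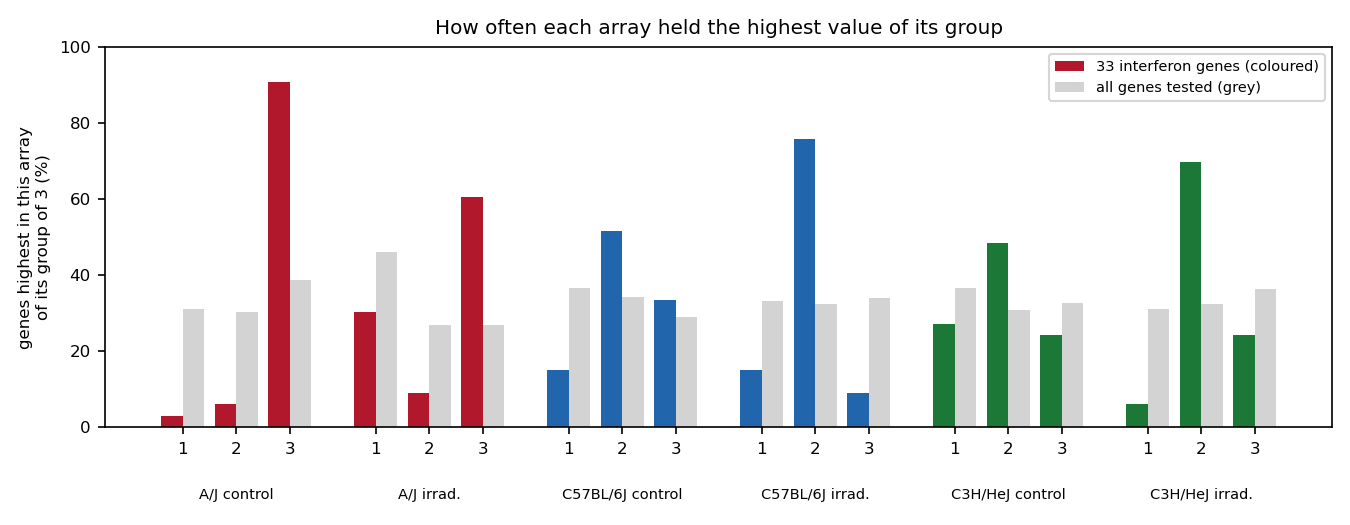
Percentage of genes that were highest in an array among the 3 arrays of its group (vertical axis), for each of the 18 arrays, over the 33 interferon genes (coloured bars) and over all genes tested (grey bars). The coloured bar of A/J control 3 stands for 30 of 33 genes, beside a grey bar at 38.6%.

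For 12 of the 33 genes several probe sets passed the filter, and these did not always move together in A/J. For Irf8 in A/J, the brightest probe set rose by 0.43 ± 0.11 (adjusted p = 0.00867 in a limma fit over all 25726 kept probe sets), while the other gave -0.84 ± 0.29 (adjusted p = 0.041) in the opposite direction. The other minus the brightest was 0.09 on average in A/J controls and -1.18 ± 0.87 (SD, n = 3) in irradiated A/J, with all 3 irradiated arrays below the lowest control. It was widest in A/J irradiated 1, at -2.17, against -0.53 in irradiated 2 and -0.85 in irradiated 3. In C57BL/6J and C3H/HeJ the group means of this gap stayed between -0.05 and 0.13. Averaged over its probe sets, the A/J difference of Irf8 was -0.20 and was not called.

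Trim30a showed a like split. In A/J its brightest probe set gave -1.14 while the other gave 0.10 ± 0.13. The same 2 gave 0.56 and 0.49 for C57BL/6J, then 0.02 and 0.41 for C3H/HeJ. The second was called higher in C3H/HeJ, at 0.41 ± 0.13 (adjusted p = 0.0414 in the limma fit over all kept probe sets). The lower Trim30a signal of irradiated A/J, and the strain difference drawn from it, were thus measured by 1 of the 2 probe sets. In the fit over all kept probe sets the second one gave a C57BL/6J minus A/J difference of 0.39 ± 0.19 (adjusted p = 0.227), not called. The mean of both gave -0.52 ± 0.16 in A/J and a C57BL/6J minus A/J difference of 1.05 ± 0.23, both still called. Eif2ak2 ran from -0.45 to 0.69 over 3 probe sets in A/J, and Stat2 gave -0.25 and 0.47.

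The gap between the highest and lowest fold change of 1 gene's probe sets had a median of 0.31 (A/J), 0.24 (C57BL/6J) and 0.25 (C3H/HeJ) for these 12 genes. Over all 5623 genes with several kept probe sets it was 0.41, 0.22 and 0.32. Gaps over 1 were found in 14.8% of those genes in A/J, against 3.7% in C3H/HeJ and 0.889% in C57BL/6J. A/J is also the strain whose irradiated arrays had the low actin ratio, 0.497 ± 0.074 (SD, n = 3) against 0.735 ± 0.006 in its controls. The part of RNA quality in the A/J values was not tested.

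**Figure D5:**
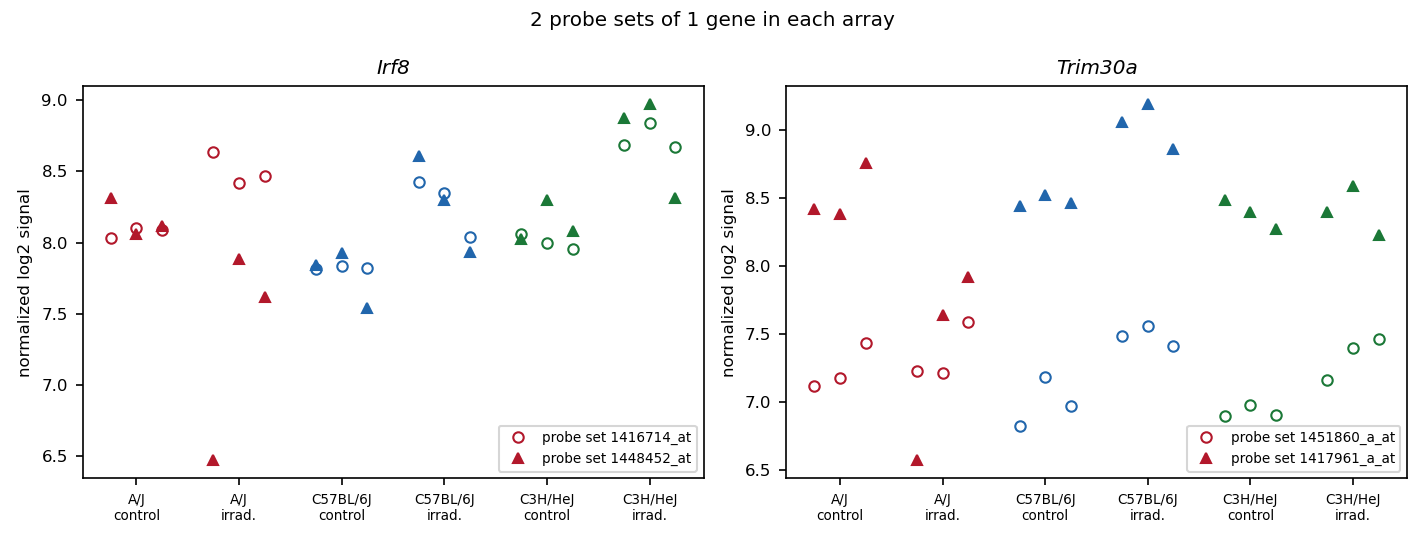
Normalized log2 signal (vertical axis) of 2 probe sets each for Irf8 and Trim30a in every array, grouped by strain and treatment, with filled and open symbols for the 2 probe sets. In irradiated A/J the Irf8 probe sets part by -1.18 on average and those of Trim30a close from a gap of 1.27 in controls to 0.03.

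The genes upstream of the response gave little signal. Of 20 listed interferon genes 10 had a probe set of their own and 2 passed the filter. Ifnb1, interferon-beta, had deposited signals of 1.2 to 22.7 and Ifng, interferon-gamma, of 0.4 to 12.6, and neither lay above the overall median in any array. Ifna2 gave -0.87 ± 0.30 in C3H/HeJ (adjusted p = 0.0481) and no call elsewhere. Of 9 receptor and kinase genes, Jak2 rose in C3H/HeJ by 0.49 ± 0.12 (adjusted p = 0.00751) and none was called in the other strains. Among all genes 12.9% were called higher in C3H/HeJ, and 24.0% in A/J and 5.37% in C57BL/6J were called in either direction. The receptor chains Ifnar1 and Ifnar2 had estimates between -0.13 and 0.29 and were not called.

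Genes that lead to interferon production make up a list of 16 tested genes: 8 rose and 1 fell in C3H/HeJ, 1 rose in A/J and 2 rose in C57BL/6J. Among all genes, 12.9% were higher and 10.6% lower in C3H/HeJ, 15.1% and 8.91% in A/J, and 3.01% and 2.36% in C57BL/6J. Of the 16, 0 were called by limma for a difference of the effects between C57BL/6J and A/J, C57BL/6J and C3H/HeJ, or C3H/HeJ and A/J. Among all genes 5.38%, 1.61% and 1.06% were called in that order. At an unadjusted p under 0.05 the list held 2, 4 and 4 genes, with no share of all genes computed at that level. Sting1, the adaptor of cytosolic DNA sensing, rose by 1.37 ± 0.30 in C3H/HeJ and 1.05 ± 0.30 in A/J, with 0.92 ± 0.30 in C57BL/6J not called (adjusted p = 0.086). Ikbke, a kinase of Irf3 and Irf7, rose by 1.19 ± 0.26 in C3H/HeJ. Irf5 rose by 0.89 ± 0.18 in C3H/HeJ and 0.67 ± 0.18 in C57BL/6J. Tlr9, an endosomal DNA receptor, fell in C3H/HeJ, at -0.94 ± 0.31. Without C3H/HeJ irradiated 3 the list's C3H/HeJ count was 5 higher and 1 lower, where 17.6% of all genes were called in either direction. Among 8 brakes on the signal, Socs3 rose by 1.87 ± 0.19 in C3H/HeJ (adjusted p = 1.14e-05) and 0.77 ± 0.19 in A/J, and Ptpn2 (0.55 ± 0.15) and Ptpn6 (0.54 ± 0.17) rose in C3H/HeJ. Of 4 genes around Isg15 conjugation, the RNA editor Adar rose in A/J (0.42 ± 0.11) and C3H/HeJ (0.33 ± 0.11).

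A further list of 42 genes induced by type I interferon was mixed in A/J, with 3 higher and 7 lower. In C57BL/6J 7 were higher and 1 lower, and in C3H/HeJ 9 were higher and 2 lower. Beside these counts, 15.1% of all genes were higher and 8.91% lower in A/J. The shares were 3.01% and 2.36% in C57BL/6J, and 12.9% and 10.6% in C3H/HeJ. Without the 3 arrays high in squamous genes, in the fit with 1 C57BL/6J control left, the C57BL/6J count was 1 higher. Lgals3bp, a secreted glycoprotein, rose in every strain, by 0.97 ± 0.15 (C3H/HeJ), 1.46 ± 0.15 (C57BL/6J) and 1.21 ± 0.15 (A/J). Ifi207 rose by 1.55 ± 0.29 in C3H/HeJ. Slfn5 gave -1.97 ± 0.37 in A/J and Dtx3l, the partner of Parp9, gave -1.27 ± 0.25 there, both called.

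Genes known mainly as interferon-gamma targets were listed separately. Of 18 tested, 0 rose and 11 fell in A/J with a median of -0.54, while 1 rose in C57BL/6J, and 3 rose and 1 fell in C3H/HeJ. All genes tested were higher in 15.1% and lower in 8.91% of cases in A/J. The shares were 3.01% and 2.36% in C57BL/6J, and 12.9% and 10.6% in C3H/HeJ. The immunity GTPases Igtp and Gbp6 fell in A/J, at -1.41 ± 0.19 and -1.39 ± 0.26. The chemokine Cxcl9 rose by 2.18 ± 0.39 in C57BL/6J and 1.99 ± 0.39 in C3H/HeJ, with 0.91 ± 0.39 in A/J not called, and Cxcl10 rose by 1.81 ± 0.41 in C3H/HeJ. Under median centring 6 of 18 fell and 1 rose in A/J, and without scaling 1 of 20 fell and 2 rose, where the list's median was -0.07 beside 0.56 over all genes. In untreated lung, 6 of the 18 were lower in C57BL/6J than in A/J (median -0.48) and 7 were lower in C3H/HeJ than in A/J (median -0.63), contrasts that share the A/J controls with the A/J effect. In the same order, 10.4% and 4.49% of all genes were called there, in either direction. Summed T lymphocyte markers (7 of 10 measured) were 395 to 416 in A/J controls and 242 to 337 in irradiated A/J, and B lymphocyte markers (7 of 9) were 947 to 1194 and 390 to 619. In C3H/HeJ the T lymphocyte sums went the other way, from 225 to 254 in controls to 261 to 333 after irradiation. In C57BL/6J they were 284 to 428 and 400 to 494, with overlap. The B lymphocyte sums of controls and irradiated lungs overlapped in both C57BL/6J and C3H/HeJ. The part of these cells in the values was not tested.

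Marker sums of cell types that respond to or make interferon are given as ranges over the 3 arrays of a group, with no test. The plasmacytoid dendritic list, 6 of 9 genes measured and sharing Bst2 and Irf8 with the antiviral genes, summed to 1235 to 1375 in A/J controls and 1125 to 1427 in irradiated A/J. It was 1270 to 1545 and 1294 to 1636 in C57BL/6J, and 1179 to 1320 and 1188 to 1302 in C3H/HeJ, so every pair overlapped. Without Bst2 and Irf8 the sum was 800 to 944 in C3H/HeJ controls and 566 to 653 after irradiation, and the pairs of A/J and C57BL/6J overlapped. The macrophage list (13 of 14 measured) went from 9707 to 10090 in A/J controls to 10680 to 16900, from 12060 to 12640 in C57BL/6J controls to 12690 to 19230, and from 10400 to 11280 in C3H/HeJ controls to 14370 to 15850. None of these pairs overlapped.

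The monocyte list (8 of 9) was 1671 to 1883 in C3H/HeJ controls and 2307 to 2762 after irradiation, and overlapped in A/J and C57BL/6J. The natural killer list (7 of 9) was 462 to 520 in A/J controls and 165 to 230 in irradiated A/J. In C57BL/6J it was 404 to 795 and 364 to 462, and in C3H/HeJ 430 to 602 and 205 to 382. None of the measured markers of these 4 lists was at 0 in a group mean. The part of these cells in the values of the antiviral genes was not tested.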

How the data were processed

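The deposited values are linear signal intensities, 1 for each of 45101 probe sets in 18 arrays, made with MAS5 (no version given) per the submitters' processing notes. Background handling and scaling target are not given in the sources used here. Samples were grouped by title, strain and treatment labels.

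The intensities were not scaled to a common level, so log2(signal + 7) was quantile-normalized, 7 being the rounded 25th percentile of all signals. The 64 control probe sets were left out. Probe sets were kept where 3 or more of the 18 arrays exceeded the median of all normalized values, which left 25726. A gene was its brightest kept probe set that the platform annotation gave to it alone (12405 genes). Of 35890 annotated probe sets, 34958 named 1 gene and 932 several, and 9211 had no annotation. Since 7 is added to each signal, fold changes of dim genes come out too small.

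limma 3.58.1 in R 4.3.3 fitted 6 group means with 12 residual degrees of freedom. Contrasts were the 3 irradiation effects, their 3 differences and the 3 untreated strain differences. Tests were two-sided, adjusted by Benjamini-Hochberg over all genes tested at 0.05, and every adjusted p in the text is from limma. The number of arrays limits the precision. The fit was tested on simulated data. Marker sums are sums of normalized signals.

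The members and lists were chosen with earlier results of these data known. Values in every array are given for the 4 members with the highest and the 2 with the lowest fold change among called members of each irradiation effect, for members called in all strains, for called differences of effects and for the largest called untreated difference of each pair. Of other pathway lists, up to 4 genes are named by the size of their called fold change, plus Ifnb1, Ifnar1, Ifnar2 and Ifng; 1 further gene of that rule is not reported here.

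Alternatives were the scaling, pseudocount, dim-signal filter, probe set rule, fit, replicate block, and leaving out arrays.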

Additional observations from a re-analysis of the deposited data

Results flagged for a closer look

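The response of Trim30a to irradiation differed between C57BL/6J and A/J, by 1.70 ± 0.34 on the log2 scale (adjusted p = 0.00979, limma, n = 3 arrays per group). By its brightest probe set, the gene was lower in all 3 irradiated A/J arrays and higher in all 3 irradiated C57BL/6J arrays than in any control of the strain. The second probe set of the gene gave 0.10 ± 0.13 in A/J and 0.49 ± 0.13 in C57BL/6J, a difference of 0.39 ± 0.19 that was not called (adjusted p = 0.227), and its irradiated A/J arrays overlapped the controls.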

How the results depend on the processing

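Over all alternatives, 900 of the values of called members kept their direction and side of the threshold, 121 lost the call and 2 reversed. The 2 were Irf8 in A/J, at -0.20 when its probe sets were averaged, and Irf1 in C3H/HeJ, at 0.24 without scaling, where the median of all genes was 0.61. Mx1 and Oas2 in A/J, and Ifit1, Ifit2, Ifit3, Mx1 and Irf8 in C3H/HeJ, were called in all 31 alternatives. The number of members called for the C57BL/6J effect (12) was 5 without scaling and 3 when fitted on its own 6 arrays. Of all genes, 1.75% and 0.637% were called there, against 5.37% in the full fit. Without the 3 arrays high in squamous genes, which leaves 1 C57BL/6J control, the members' median was 0.45. For C57BL/6J minus A/J (1) the number called was 0 without scaling and 3 with array weights, and for C3H/HeJ minus A/J (0) it was 1 with array weights. Without scaling the calls split 10 higher and 0 lower in A/J and 17 and 0 in C3H/HeJ, and under median centring 10 and 1, and 14 and 0. The shares of all genes called were 19.5% (A/J) and 25.9% (C3H/HeJ) without scaling, and 37.7% and 27.6% under median centring.

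Between untreated C57BL/6J and A/J the count (1) was 0 without scaling, with median centring, with no filter and without the 3 squamous arrays, 2 with the 9-array filter, with averaged probe sets and with a variance trend, and 3 with array weights. Between C57BL/6J and C3H/HeJ (1) it was 0 without scaling, with median centring, averaged probe sets, only the groups compared and without the 3 squamous arrays. Between C3H/HeJ and A/J (2) it was 1 without scaling, with median centring, trimmed-mean scaling, pseudocount 32 and no filter, and 0 with only the groups compared. Apart from the smaller number of arrays in some fits, the cause was not tested.

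Leaving out 1 array at a time, counts for the 3 effects ran from 6 to 12 (A/J), 5 to 14 (C57BL/6J) and 5 to 14 (C3H/HeJ). At those ends the shares of all genes called were 16.8% and 19.7% in A/J. They were 1.72% or 1.82% and 6.87% in C57BL/6J, and 17.3% and 22.2% in C3H/HeJ. The counts ran from 1 to 4 for C57BL/6J minus A/J, 0 to 0 for C57BL/6J minus C3H/HeJ, 0 to 1 for C3H/HeJ minus A/J, and 0 to 2 in each untreated contrast.

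Replicate numbers are shared between groups but arrays of 1 number did not deviate together (correlations of -0.189 to 0.256, 3 of 45 over 0.1). With the replicate block the effects had 8 (A/J), 10 (C57BL/6J) and 12 (C3H/HeJ) calls, and untreated C3H/HeJ against A/J had 1. The shares of all genes called for the effects were 22.8%, 4.69% and 22.1% in that order.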
